A study of Mus musculus with 2 samples.

Results

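Negr1-rich cells were the cells of 2 splenic single-cell RNA-seq libraries that held at least 5 unique molecular identifiers (UMIs) of Negr1. There were 311 of them among 19339 cells, 173 of 7814 in the WT and 138 of 11525 in the H2-Aa cit/cit library. The label under which they were collected names C1qa and C1qb as further markers. C1q transcripts were found in a minority of the cells, so they are called here by Negr1 and by the genes that lead them.

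The study measured splenic dendritic cells (DC) of untreated WT (H2-Aa +/+) mice and of mice homozygous for the citation (cit) allele of H2-Aa, which impairs splicing of the transcript of this MHC class II alpha chain. Per the labels, each library pooled 3 female mice of 4 months, whereas the study's methods give younger mice of both sexes for its experiments in general. Splenocytes were enriched by CD11c positive selection and live CD45.2+ CD11c+ cells were sorted, so any CD11c+ cell, and not DC alone, could enter. The libraries held 51020804 UMIs in WT and 72652201 UMIs in cit/cit cells, with medians of 5492 and 5633 UMIs per cell. With 1 library per genotype there was no replicate, so no test between genotypes was possible, differences cannot be told apart from those between the 2 libraries or their mice, and all intervals cover counting error alone.

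Negr1 encodes a cell adhesion molecule of the IgLON family, which is tethered to the membrane by a GPI anchor and is best known from neurons, where it takes part in neurite growth. C1q, the first component of the classical complement pathway, is made largely by macrophages and by some DC. In the spleen CD11c is carried by conventional DC, by plasmacytoid DC at a low level, and by some macrophages and non-classical monocytes.

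The cells were chosen by their Negr1 UMIs, and Negr1 values are given as a description. Every other gene was measured in the same cells, so all values below are descriptions too, without a test. Negr1 spans 754.65 kb on chromosome 3 (GRCm38, 156561794 to 157316445, plus strand). The WT Negr1-rich cells held from 5 to 106 Negr1 UMIs with a median of 11, and the cit/cit cells from 5 to 55 with a median of 7. They carried 88.5% of all Negr1 UMIs of the WT library and 68.0% of those of the cit/cit library. These shares follow from the choice of the cells by Negr1.

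Negr1-rich cells were 2.21% of the WT library (exact 95% binomial interval 1.90 to 2.57%) and 1.20% of the cit/cit library (1.01 to 1.41%). The difference of the shares, cit/cit minus WT, was -1.02 points (Newcombe interval -1.41 to -0.644). At a minimum of 10 UMIs there were 102 WT and 46 cit/cit cells, and at 20 UMIs 39 and 12. WT cells were 55.6% of the cells at 5 UMIs, 68.9% at 10 and 76.5% at 20. The larger the Negr1 content asked for, the more the cells came from WT, although at 3 UMIs the 2 libraries gave 227 and 236 cells.

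**Figure D1:**
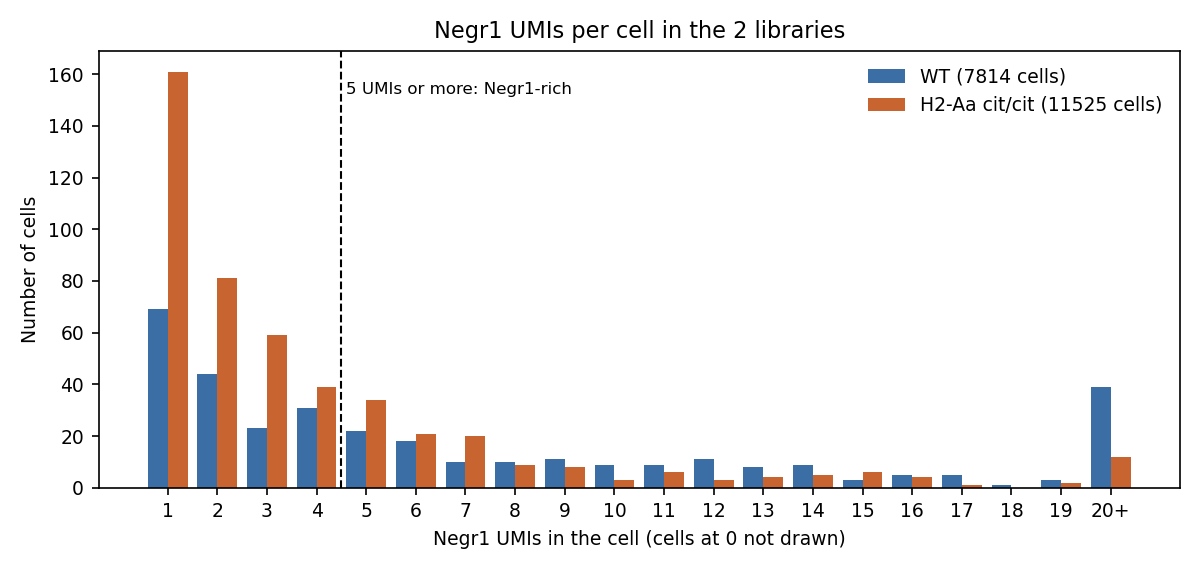
Number of cells (y axis) by their Negr1 UMIs (x axis) in the WT and the H2-Aa cit/cit library, without the cells at 0. WT cells outnumber cit/cit cells at 20 UMIs or more (39 against 12), while cit/cit cells outnumber WT cells at 4 UMIs, just under the minimum (39 against 31).

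The minimum cut through a continuous tail. Just inside it, at 5 UMIs, were 22 WT and 34 cit/cit cells, and just outside it, at 4 UMIs, were 31 and 39. Of these, 3 WT and 1 cit/cit cell inside, and 4 and 3 cells outside, held at least 2 UMIs of Sox5, the gene that leads the Negr1-rich cells below. Negr1-rich cells had medians of 6591 UMIs in WT and 6764 in cit/cit, beside 5462 and 5615 in the other cells, so they were somewhat deeper. Cells with the highest doublet scores made up 17.3% of the WT and 19.6% of the cit/cit Negr1-rich cells, beside 5.99% and 9.10% of the other cells, and their part in the results was not tested beyond the counts without them given below. The 2 libraries shared 31 cell barcodes, which is 0.397% of the WT and 0.269% of the cit/cit barcodes.

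The Negr1-rich cells were not 1 kind of cell. Apart from Negr1, the gene most enriched in the WT cells was Sox5, a transcription factor of the SoxD group. With at least 2 Sox5 UMIs as a split, chosen after its values were seen, 83 WT and 15 cit/cit Negr1-rich cells formed a Sox5+ group. Another 30 WT and 35 cit/cit cells held at least 3 UMIs of both Ccr7, the chemokine receptor that guides mature DC to T cell zones, and Fscn1, an actin-bundling protein of mature DC. The remaining 60 WT and 88 cit/cit cells met neither rule. Sox5+ cells were thus 48.0% of the Negr1-rich cells in WT and 10.9% in cit/cit, and the 3 groups differed in their proportions between the libraries.

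The Sox5+ cells of WT lay mostly in 1 cluster made without Negr1. When the WT cells were clustered without Negr1, 86 of the 173 Negr1-rich cells fell into a cluster of 113 cells whose 10 leading genes were Sox5, Pparg, Myh15, Ptprm, Fcrl5, Slit3, Ms4a6d, Fcgr4, Fabp4 and Rnf144a. The other 27 cells of this cluster held fewer than 5 Negr1 UMIs, 11 of them none. Their summed level, in UMIs per 1000000 UMIs (CPM), was 879 for Sox5, 1407 for Pparg and 536 for Myh15, beside 3.84, 14.3 and 2.40 CPM in the WT cells outside the cluster. These genes were part of the clustering, so their levels there are a description of the cluster. None of the cit/cit clusters that held Negr1-rich cells had Sox5 among its 10 leading genes, and the 15 Sox5+ cells there were spread, 7 of them in a cluster of 89 cells led by Fabp4 and Pparg and 5 in a cluster of 831 cells led by mature DC genes.

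Neighborhoods were compared next. Among the 15 nearest neighbors of a WT Negr1-rich cell, found without Negr1 in the cell's own library, 44.7% on average were Negr1-rich, although such cells were 2.21% of the library. In cit/cit the share was 10.8% beside 1.20% of the library. In the WT Sox5+ group the share was 74.9%, beside 16.2% in the Ccr7+ Fscn1+ group and 17.2% in the remaining cells. In cit/cit these shares were 19.6%, 12.6% and 8.64%. Sox5, which chose the Sox5+ group, was not left out of this search. The share in that group may thus in part follow from the choice.

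Against all other cells of the same library, 204 of 4129 genes (4.94%) were at least 2-fold higher and 78 (1.89%) at least 2-fold lower in WT Negr1-rich cells. In cit/cit, 151 of 4072 genes (3.71%) were higher and 21 (0.516%) lower. Levels are summed UMIs in CPM, ratios are log2 with 5 CPM added on both sides, and genes with at least 50 CPM on 1 side were compared. Of the genes higher in WT, 73 were higher in cit/cit too, which is 35.8% of the WT and 48.3% of the cit/cit genes. Without the cells of the highest doublet scores, 143 WT and 111 cit/cit Negr1-rich cells were left, with 274 genes higher and 161 lower in WT and 282 higher and 111 lower in cit/cit. Single cells of high depth weighed on the sums, since 1 WT cell held 56908 and 1 cit/cit cell 118560 UMIs.

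After Negr1, Sox5 had the highest ratio in WT. It was found at 605 CPM in WT Negr1-rich cells (565 to 648) against 5.84 CPM in other cells, and at 112 CPM (94.1 to 132) against 1.67 CPM in cit/cit. Its log2 ratio was 5.81 in WT and 4.13 in cit/cit. In the WT cells 89 of 173 held a Sox5 UMI, with up to 37 UMIs in a cell, and in cit/cit 18 of 138, with up to 22. Sox5 spans 953.55 kb on chromosome 6 (143828425 to 144781977, minus strand).

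Pparg, a lipid-activated nuclear receptor needed by alveolar and other tissue macrophages, came next. Its level was 758 CPM in WT Negr1-rich cells and 17.5 CPM in other WT cells, and 113 and 13.2 CPM in cit/cit, with log2 ratios of 5.08 and 2.69. A Pparg UMI was found in 57.2% of the WT and 24.6% of the cit/cit Negr1-rich cells. Fabp4, a fatty acid binding protein that is a known Pparg target, was at 185 against 10.1 CPM in WT and at 22.7 against 2.80 CPM in cit/cit.

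Among further leading genes were those of 3 surface receptors. Fcrl5, an Fc receptor-like protein known from B cells, reached 394 CPM in WT and 83.6 CPM in cit/cit Negr1-rich cells, beside 10.8 and 5.28 CPM in other cells. Fcgr4, an activating receptor for IgG that marks non-classical monocytes and macrophages, was at 269 and 90.1 CPM, beside 10.2 and 17.2 CPM. Ptprm, a homophilic receptor tyrosine phosphatase, was at 179 and 34.9 CPM, beside 1.45 and 0.518 CPM. These 3 genes were higher in the Negr1-rich cells of both libraries, with larger ratios in WT. Within the Sox5+ group the log2 ratio of Fcrl5 was 5.62 in WT and 5.78 in cit/cit, that of Ptprm 5.85 and 6.28, and that of Fcgr4 5.27 and 4.88.

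The leading genes were unevenly spread over cells. Slit3, a secreted guidance ligand, was found in 19 of the 173 WT cells, and 3 cells held 56.2% of its 192 UMIs. Fcrl5 was spread more widely, with a UMI in 62.4% of the WT cells. Over the 23 leading genes other than Negr1 and Sox5, a WT Sox5+ cell held a median of 11 (0 to 20) and a cit/cit Sox5+ cell a median of 11 (0 to 18). The medians were 1 in the Ccr7+ Fscn1+ group of either library, 1.5 and 1 in the remaining cells, and 0 over all other cells pooled. Classes of other cells were chosen by at least 10 C1q UMIs, or by at least 2 Ace UMIs and a Fabp4 UMI, so C1qa, C1qb, C1qc and Fabp4 were left out to compare them. Of the 19 genes left, a Sox5+ cell held a median of 10 in both libraries, an Ace+ Fabp4+ cell 5 in WT and 4 in cit/cit, and a C1q cell 2 in both. The genes were picked as the highest in WT Negr1-rich cells against all other cells, these classes among them. Lower medians in the WT classes are thus in part fixed by the choice. At least 5 of the 23 genes were found in 79 of the 83 WT and 11 of the 15 cit/cit Sox5+ cells, which had medians of 5643 and 5843 UMIs.

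Leaving out Negr1, which chose the cells in both libraries, 23 of the 24 genes highest in WT Negr1-rich cells had a log2 ratio above 0 in cit/cit and 20 were at least 2-fold higher there. Within the Sox5+ group, leaving out Sox5 too, 22 of 23 were at least 2-fold higher in cit/cit, 4 of them (Myh15, Rai14, Gm13391 and Gm49417) from 3 UMIs or fewer. Fabp1, a liver-type fatty acid binding protein, was the exception, with 80 UMIs in 24 WT Negr1-rich cells and 0 UMIs in the cit/cit cells, which allows up to 2.44 CPM. Myh15, a myosin heavy chain, had 364 UMIs in WT and 11 in cit/cit Negr1-rich cells. In the Sox5+ group Myh15 was at 500 CPM in WT (445 to 560) and at 10.3 CPM in cit/cit, from 1 UMI (0.262 to 57.6). The 25 genes had a median length of 59.0 kb, beside 41.2 kb for all genes compared. Of the 25, 11 were longer than 100 kb, beside 895 of the 4127 genes compared that had a length.

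**Figure D2:**
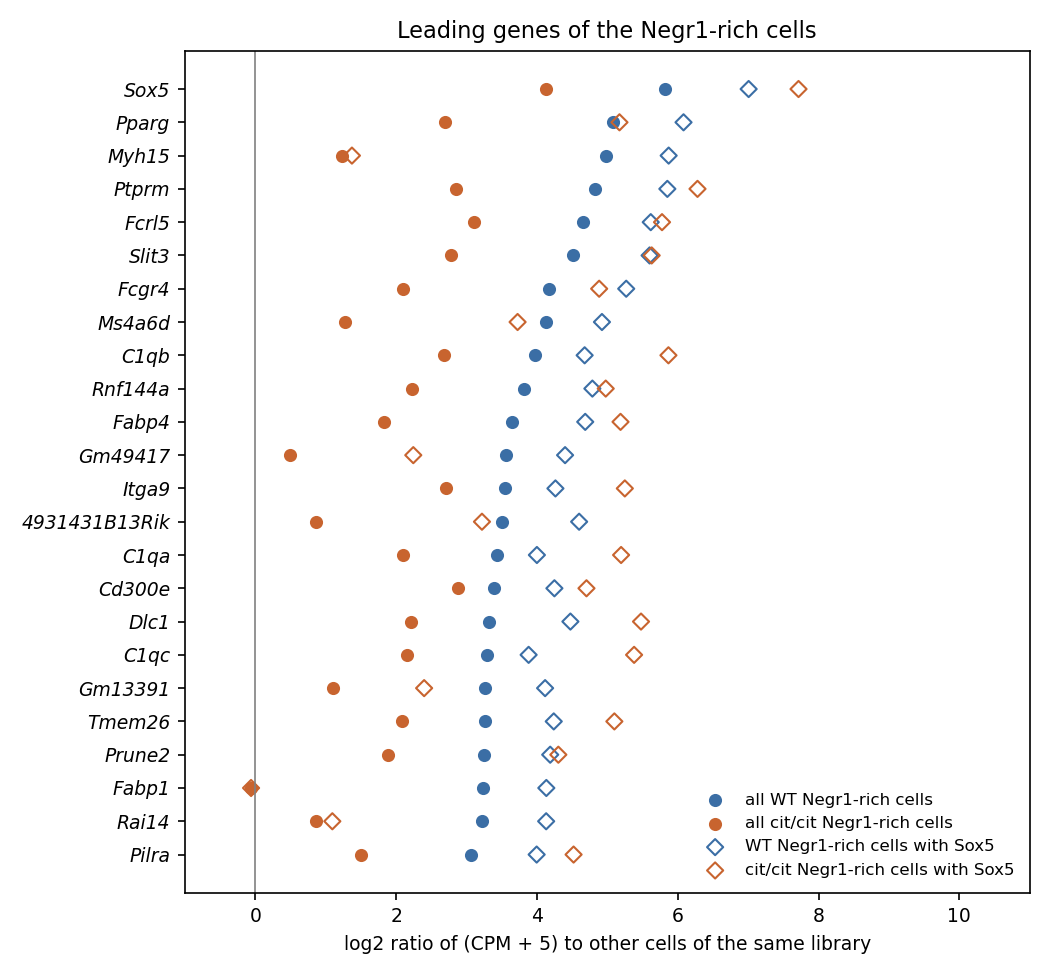
The log2 ratio (x axis) of the 24 leading genes other than Negr1 (y axis) in WT and cit/cit Negr1-rich cells against all other cells of the library, for all Negr1-rich cells (filled circles) and for the Sox5+ group (open diamonds). Leaving out Sox5, which defines the group, 22 of 23 cit/cit diamonds lie at 1 or more, 4 of them from 3 UMIs or fewer, and Fabp1 lies near 0.

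The C1q genes were high in a part of the cells. At least 1 UMI of C1qa, C1qb or C1qc was found in 44 WT (25.4%) and 11 cit/cit (7.97%) Negr1-rich cells, beside 3.85% and 1.89% of the other cells, and at least 10 UMIs in 20 and 5 of them. Summed over the Negr1-rich cells, C1qb was at 245 CPM in WT (220 to 273) and 56.8 CPM in cit/cit (44.3 to 71.8), beside 11.02 and 4.65 CPM in the other cells. C1qa was at 173 and 36.5 CPM and C1qc at 126 and 30.8 CPM. After thinning every cell to 1500 UMIs, a C1qb UMI was left in 14.0% of the WT and 4.35% of the cit/cit Negr1-rich cells (20.8% and 6.52% before thinning), beside 0.438% of WT and 0.168% of cit/cit cells with Xcr1, a marker of cDC1, which had medians of 14293 and 15883 UMIs. The shares in Negr1-rich cells were thus above those in cDC1, which should lack C1q, while most Negr1-rich cells had none detected at this depth.

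C1q was shared out among the groups of Negr1-rich cells. Of the 44 WT cells with C1q, 33 were Sox5+, as were 5 of the 11 in cit/cit. In the cit/cit Sox5+ group, 3 cells held 83.3% of the C1qb UMIs. The other cells with at least 10 C1q UMIs, 39 in WT and 24 in cit/cit, had little Sox5, at 3.61 CPM in WT and 0 UMIs in cit/cit, while C1qb was at 1217 and 1617 CPM. Negr1, kept under 5 UMIs by the rule, was at 65.0 and 115 CPM there, beside 7.05 and 9.19 CPM in all other cells. Mertk, the uptake receptor of tissue macrophages, was at 217 and 35.3 CPM in these C1q cells and had 0 UMIs in the 173 and 138 Negr1-rich cells, which allows up to 2.20 and 2.44 CPM.

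The lineage genes of the Sox5+ group were set against all other cells of each library. In WT, 371 of 4322 genes (8.58%) were at least 2-fold higher and 256 (5.92%) lower. In cit/cit, where the group held 15 cells and 96658 UMIs, 799 of 4746 (16.8%) were higher and 490 (10.3%) lower, and at this depth many of these rest on few UMIs. Of the genes higher in WT, 224 were higher in cit/cit too (60.4% of the WT and 28.04% of the cit/cit genes), and of those lower in WT, 104 were lower in cit/cit (40.6% and 21.2%). There were 23 genes lower in WT and higher in cit/cit, and 1 gene higher in WT and lower in cit/cit.

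Genes of non-classical monocytes, the patrolling monocytes of blood and spleen, were among the higher ones. Of the 8 genes of this list, 6 were compared in WT, of which 5 were at least 2-fold higher and 1 lower, and all 6 compared in cit/cit were higher. Of all genes compared, 8.58% were higher in WT and 16.8% in cit/cit. Pparg, at 17.5 and 13.2 CPM in other cells, and Fabp4, at 10.1 and 2.80 CPM, met the minimum only through the Sox5+ cells. They had to be called higher, so the counts are in part fixed. The median log2 ratio over the 6 list genes compared was 2.56 in WT and 1.99 in cit/cit, beside 0.07 and 0.23 over all genes compared. Over all 8 genes of the list it was lower, at 1.57 and 1.46. Pou2f2, a POU-domain transcription factor, reached 1500 CPM in WT and 1076 CPM in cit/cit Sox5+ cells, beside 158 and 205 CPM. Fabp4 was at 383 and 279 CPM, and Spn, the sialophorin CD43, at 91.5 and 82.8 CPM. Nr4a1, an orphan nuclear receptor that non-classical monocytes need, was at 142 and 145 CPM, beside 58.2 and 55.5 CPM.

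The list did not hold as a whole. Ace, the angiotensin-converting enzyme that is a marker of these monocytes, was at 11.9 and 10.3 CPM in the Sox5+ cells and at 12.5 and 12.8 CPM in other cells. Cd36, a scavenger receptor, was at 18.6 CPM in WT, beside 53.5 CPM, and had 0 UMIs in cit/cit. Cells outside the Negr1-rich set that held at least 2 Ace UMIs and a Fabp4 UMI, 57 in WT and 50 in cit/cit, had Ace at 759 and 713 CPM, Spn at 543 and 414 CPM and Cebpb at 1345 and 1059 CPM. Sox5 was at 12.6 CPM and 0 UMIs there, and Negr1 at 5.03 and 9.63 CPM. The rules that chose the 2 classes used Ace, Fabp4, Sox5 and Negr1. Of the genes that no rule used, Pparg was at 704 and 655 CPM in the Ace+ Fabp4+ cells, beside 1519 and 652 CPM in the Sox5+ cells. Fcgr4 was at 420 and 398 CPM, beside 581 and 652 CPM, and Pou2f2 at 1627 and 1547 CPM, beside the values above. Cebpb, at 61.0 and 31.0 CPM in the Sox5+ cells, and Spn lay far lower there than in the Ace+ Fabp4+ cells.

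Macrophage genes were high in part. Of 12 pan-macrophage genes, 8 were compared in each library, and none was lower in the Sox5+ cells. Higher were 5 of 8 in WT and 4 of 8 in cit/cit, against backgrounds of 8.58% and 16.8% of all genes compared. These included C1qa, C1qb and C1qc and Ms4a7, a membrane protein of macrophages, at 253 and 145 CPM beside 16.0 and 18.9 CPM. The C1q genes and Ms4a7 were so low in other cells that they met the minimum only through the Sox5+ cells. They had to be called higher, so the counts cannot be read against the backgrounds. Itgad, the integrin alpha D of red pulp macrophages, reached 397 CPM in WT and 466 CPM in cit/cit, beside 18.7 and 20.4 CPM. Of the 10 genes of the red pulp macrophage list, 3 were compared in WT and 4 in cit/cit, and all of these were higher. Itgad too met the minimum only through the Sox5+ cells and had to be called higher, so these counts are in part fixed. The median log2 ratio over the list genes compared was 3.33 in WT and 2.16 in cit/cit. Over all 10 genes it was lower, at 0.60 and 0.77. Cd163 of this list had 0 UMIs in both libraries, and Vcam1, Slc40a1 and Clec4n had 0 UMIs in cit/cit. Nr1h3, the LXR alpha receptor, was at 103 and 72.4 CPM, beside 4.59 and 2.002 CPM, and Slc11a1, a phagosomal metal transporter, at 186 and 114 CPM. Mertk, Siglec1 and Trem2 had 0 UMIs in the Sox5+ cells of both libraries. Spic, the transcription factor of red pulp macrophages, reached 28.8 CPM in WT and 20.7 CPM in cit/cit, beside 15.7 and 8.25 CPM. Csf1r, the receptor for M-CSF, was at 96.6 and 82.8 CPM, beside 47.2 and 53.7 CPM. It was left after thinning in 13.3% and 20% of the Sox5+ cells, beside 5.78% and 7.25% of other cells. The cit/cit share is 3 of 15 cells (4.33 to 48.1%). In the Ace+ Fabp4+ cells the shares were higher, at 58.9% and 53.1%, as in the C1q cells, at 40% and 43.8%.

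DC genes were mixed. Of the 5 pan DC genes, 3 were at least 2-fold lower in WT Sox5+ cells and 1 in cit/cit, with median log2 ratios of -1.18 and -0.42 and none higher. Of all genes compared, 5.92% were lower in WT and 10.3% in cit/cit. Flt3, the receptor for the growth factor of DC, was at 102 CPM in WT Sox5+ cells (77.6 to 131) beside 427 CPM in other cells, and at 248 (159 to 369) beside 333 CPM in cit/cit. Zbtb46, a transcription factor of conventional DC, was at 119 CPM beside 276 CPM in WT and at 176 beside 265 CPM in cit/cit. Kit was at 35.6 beside 142 CPM and at 10.3 beside 146 CPM. Itgax, which encodes the CD11c used in the sort, was at 271 beside 198 CPM in WT and 176 beside 224 CPM in cit/cit. Of the cDC1 list, Cadm1, an adhesion molecule, was the gene that was at least 2-fold higher in both libraries, at 817 and 517 CPM beside 232 and 128 CPM, while 2 of the 7 genes compared were lower in WT and 5 of 7 in cit/cit. Xcr1 was at 52.5 and 10.3 CPM. Of the 7 cDC2 genes compared, 2 were higher and 4 lower in WT, and 0 higher and 4 lower in cit/cit.

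Mature DC genes of the Sox5+ group stood differently to the other cells of the 2 libraries. Of the 10 list genes, 6 were compared in cit/cit and all were at least 2-fold higher, with a median log2 ratio of 1.72. Among all genes compared in cit/cit, 16.8% were higher, and the median was 0.23. Genes below the minimum in other cells could enter only through a higher level in the Sox5+ cells. The count and the median of 1.72 may thus in part follow from the choice. Over all 10 list genes the cit/cit median was 1.37. The list summed to 2566 CPM beside 881 CPM in cit/cit. In WT 1 of 7 was higher and 2 were lower, with a median of -0.61, or -0.75 over all 10 genes. Among all genes compared in WT, 8.58% were higher and 5.92% lower. The list summed to 1905 CPM beside 2370 CPM in WT. The summed levels of the other cells lay further apart between the libraries than those of the Sox5+ cells. Of the Sox5+ cells, 4 of 15 in cit/cit and 1 of 83 in WT held at least 3 UMIs of both Ccr7 and Fscn1. Before thinning, a Ccr7 UMI was found in 6 of these 15 and 40 of these 83 cells. The summed levels of the list are thus not those of every cell of the group. After thinning, a Ccr7 UMI was left in 32.5% of the WT Sox5+ cells, beside 20.8% of other cells, and in 26.7% of the cit/cit ones, beside 9.84%.

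MHC class II genes were low in the Sox5+ group of either genotype. Of the 11 genes compared, 9 were at least 2-fold lower in WT and 10 in cit/cit, with median log2 ratios of -1.33 and -1.95. Of all genes compared, 5.92% were lower in WT and 10.3% in cit/cit. The cit/cit count includes H2-Aa, which rests on 2 UMIs there. Cd74, the invariant chain, was at 4531 beside 12960 CPM in WT and at 3683 beside 15190 CPM in cit/cit. Ciita, the class II transactivator, was at 166 beside 614 CPM and at 155 beside 677 CPM. H2-Aa, the gene that carries the cit mutation, was at 2178 CPM in the WT Sox5+ cells, beside 5467 CPM, and at 20.7 CPM in the cit/cit cells, from 2 UMIs. Lower H2-Aa was not particular to the Sox5+ group. After thinning, an H2-Aa UMI was left in 73.5% of WT Sox5+ cells and 70% of Ccr7+ Fscn1+ Negr1-rich cells. The share was 80.4% in other Ccr7+ Fscn1+ cells, 80% in C1q cells and 51.8% in Ace+ Fabp4+ cells, beside 92.8% of all other WT cells.

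Markers of other cell types were compared next. Cd3e, Ncr1 and S100a8, markers of T cells, NK cells and neutrophils, had 0 UMIs in the Sox5+ cells of both libraries. Csf3r, the G-CSF receptor of the neutrophil list, reached 84.7 CPM in WT and 41.4 CPM in cit/cit, beside 13.01 and 8.39 CPM. Il7r, the IL-7 receptor of the ILC3 list, was at 203 and 72.4 CPM, beside 45.0 and 21.2 CPM. The T cell list summed to 49.2 CPM in WT, beside 14.1 CPM, mostly from Cd8b1 at 40.7 CPM, and to 10.3 CPM in cit/cit, beside 8.77 CPM. In the B cell list Cd79b, a part of the B cell receptor, was at 124 beside 15.9 CPM in WT and at 41.4 beside 22.2 CPM in cit/cit, and Pax5 at 10.2 and 51.7 CPM, the latter from 5 UMIs. The plasma cell list summed to 500.01 CPM in WT, beside 455 CPM, with 2 of 4 genes compared higher and 1 lower, and to 393 CPM in cit/cit, beside 229 CPM, with 1 of 2 higher. Most of it was Ighm, the mu heavy chain, at 347 and 290 CPM, beside 117 and 124 CPM. The pDC list summed to 537 CPM beside 621 CPM in WT, with 0 of 4 genes called, and to 352 beside 610 CPM in cit/cit, with 2 of 4 lower. Pecam1, an adhesion molecule of endothelium and of monocytes, was at 363 and 352 CPM, and was the gene of the endothelial list that was compared. Hbb-bs had 0 UMIs in WT and 2 in cit/cit Sox5+ cells. All 8 genes of the neural and glial list summed were at 3.39 CPM in WT and 0 in cit/cit, and the IgLON relatives Lsamp, Ntm and Opcml had 0 UMIs.

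**Figure D3:**
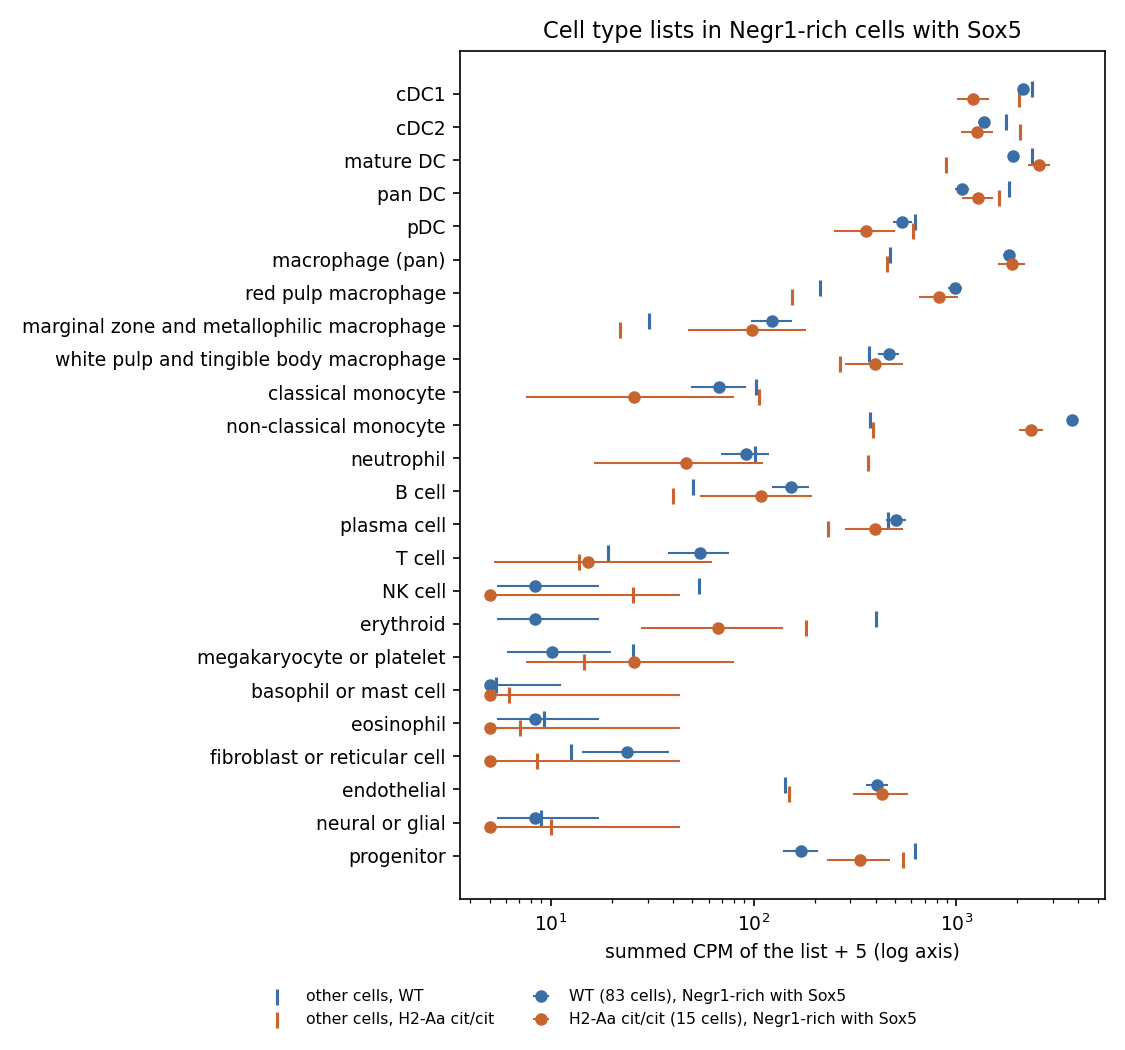
Summed level of the cell type lists shown (y axis) in Sox5+ Negr1-rich cells (circles, with exact Poisson intervals) and in all other cells (vertical ticks) of the 2 libraries, as CPM plus 5 on a log axis (x axis). The non-classical monocyte and macrophage lists lie to the right of the ticks in both libraries, and the pan DC list to the left.

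Lysosomal and myeloid signaling genes were compared next. Of the 27 lysosomal genes, 10 of 23 compared were higher in WT Sox5+ cells and 7 of 23 in cit/cit, with none lower, against backgrounds of 8.58% and 16.8% of all genes compared. Acp5, the tartrate-resistant acid phosphatase, was at 458 and 383 CPM, beside 64.4 and 77.0 CPM, and Ctsd, cathepsin D, at 192 and 103 CPM, beside 22.6 and 27.6 CPM. Zeb2, a repressor of importance to monocyte and DC fate, was at 1980 CPM in WT (1868 to 2097) and 2069 CPM in cit/cit (1792 to 2377), beside 673 and 674 CPM. Fcer1g, the common gamma chain of Fc receptors, was at 2103 and 2380 CPM beside 592 and 797 CPM, and Il1b at 509 and 362 CPM beside 94.9 and 96.8 CPM. Zeb2 and Fcer1g lay close together in the 2 libraries.

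Some further genes of the Sox5+ group are given with 15 cells behind the cit/cit values. Irf8 was at 317 CPM in WT Sox5+ cells (273 to 366), as in other WT cells (329 CPM), and at 20.7 CPM in cit/cit from 2 UMIs (2.51 to 74.7), beside 286 CPM. Hspa5, the chaperone BiP, reached 271 CPM in WT and 166 CPM in cit/cit Sox5+ cells, while other cells were at 252 CPM in WT and 1166 CPM in cit/cit. Of the 17 genes for folding in the endoplasmic reticulum, 11 were at least 2-fold lower in the cit/cit Sox5+ cells than in other cit/cit cells. In WT, 0 of the 13 compared were lower. Over all genes compared, 10.3% were lower in cit/cit and 5.92% in WT. Ccl5, a chemokine for T cells, reached 1120 CPM in WT and 5194 CPM in cit/cit, but 3 cells held 75.6% and 71.5% of these UMIs.

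In the Ccr7+ Fscn1+ group, Ccr7 and Fscn1 are fixed by the rule. Ccr7 reached 1008 CPM in WT and 631 CPM in cit/cit cells of the group, beside 1171 and 1037 CPM in the other Ccr7+ Fscn1+ cells, and 1179 and 877 CPM without the deepest cell of each group. There were 1058 such other cells in WT and 523 in cit/cit. Against the other Ccr7+ Fscn1+ cells of their library, 396 of 3906 genes (10.1%) were at least 2-fold higher and 226 (5.79%) lower in WT, and 90 of 3944 (2.28%) were higher and 75 (1.9%) lower in cit/cit. Higher in both libraries were 30 genes, and lower in both 45 genes. Of the mature DC list, 5 of 9 genes compared were lower in WT and 2 of 8 in cit/cit, with none higher, and the list summed to 5632 beside 7451 CPM and to 3652 beside 6017 CPM. The deepest cell held 17.6% of the UMIs of the WT group and 29.2% of those of the cit/cit group. Without it, 334 genes were higher and 262 lower in WT, and 80 and 71 in cit/cit.

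Genes of this comparison are named after their values were seen. Grap2, an adaptor of T cell receptor signaling, reached 136 CPM in WT and 256 CPM in cit/cit, beside 24.0 and 66.5 CPM in the other mature cells. Sirpb1a, a signal regulatory protein, was at 220 and 350 CPM, beside 38.1 and 112 CPM. Lower in both were H2-M2, a class I-like gene of mature DC, at 143 and 180 CPM beside 712 and 623 CPM, and Cd63, a tetraspanin of endosomes, at 146 and 148 CPM beside 521 and 396 CPM. Without the deepest cell Sirpb1a reached 147 CPM in WT and 265 CPM in cit/cit, and the log2 ratio of Cd63 in cit/cit was -0.95. Ccl22, a chemokine of mature DC, had 4 UMIs in WT and 0 in cit/cit. Ccl5 was at 10570 CPM beside 5275 CPM in WT and at 7446 beside 7605 CPM in cit/cit, where without the deepest cell it was at 10265 CPM, a log2 ratio of 0.43 in place of -0.03.

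Among the remaining cells, whose Sox5 the rule kept under 2 UMIs, a minority held the leading genes. At least 5 of the 23 were found in 14 of the 60 WT and 10 of the 88 cit/cit cells, and a Pparg UMI in 19 and 20 cells. Against all other cells, 155 of 4216 genes (3.68%) were at least 2-fold higher in WT and 96 of 4087 (2.35%) in cit/cit, and 87 (2.06%) and 26 (0.636%) were lower. Wfdc17, a secreted protein of activated macrophages, was at 745 CPM in WT (667 to 829) and 658 CPM in cit/cit (600 to 720), beside 72.8 and 111 CPM. Cd300e, an activating receptor of monocytes, was at 97.2 and 152 CPM, beside 11.4 and 14.2 CPM, and Pparg at 294 and 97.3 CPM, beside 17.5 and 13.2 CPM. Clec4a3, a C-type lectin of monocytes, was at 245 and 236 CPM, beside 36.5 and 71.4 CPM. C1qb was summed to 212 CPM in WT, where 9 cells held it and 1 cell had 44.8% of its UMIs, and to 21.9 CPM in cit/cit, where 3 cells had 87.5%. In these cells MHC class II was near the other cells, with Cd74 at 11660 CPM in WT and 11740 CPM in cit/cit.

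**Figure D4:**
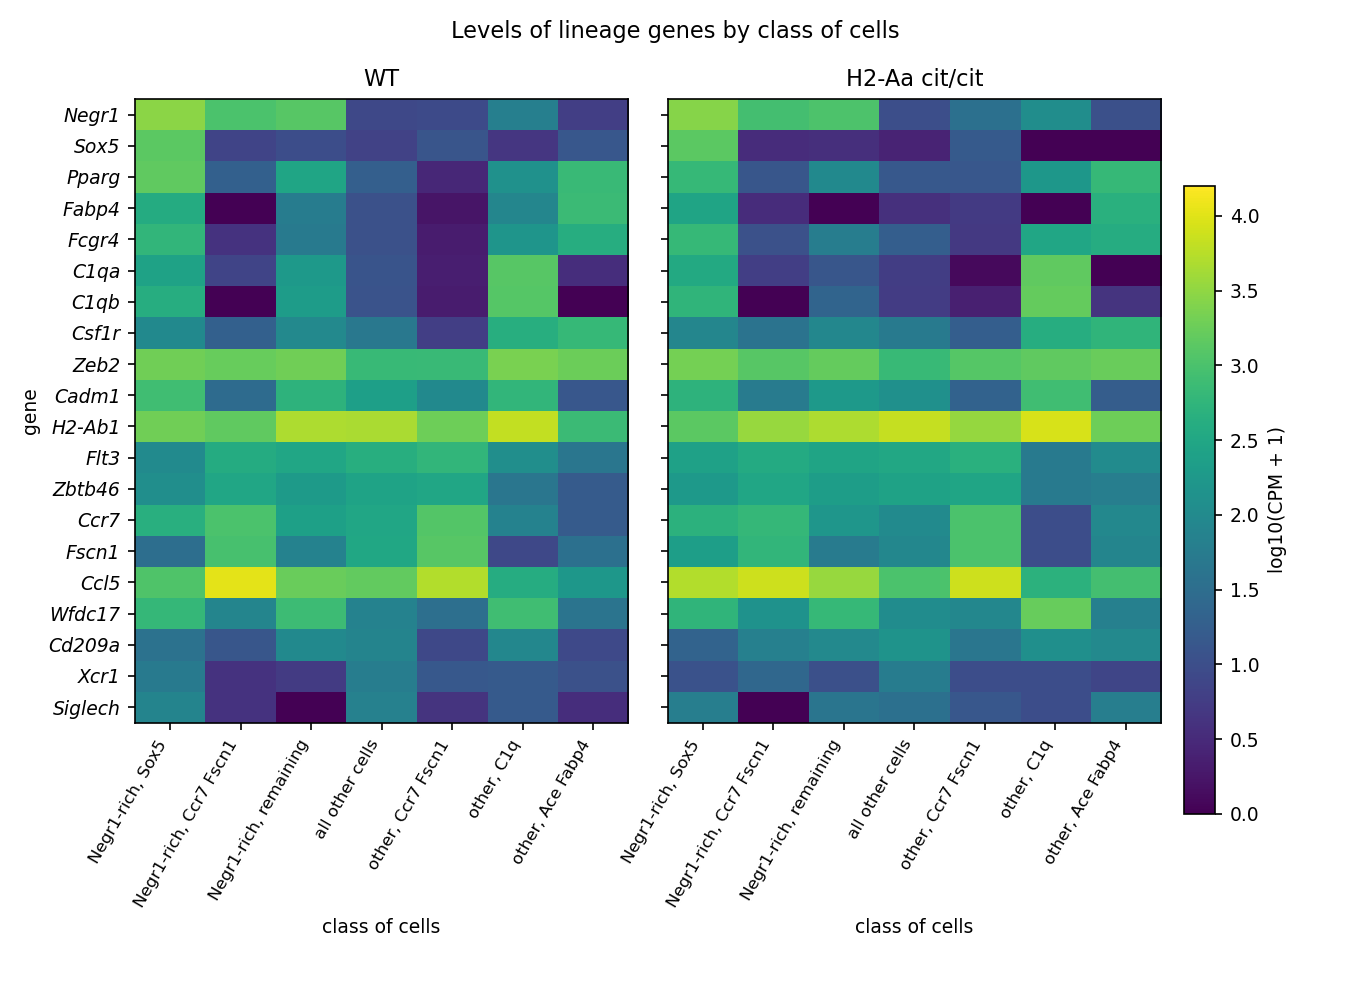
Level of 20 genes (y axis) as log10(CPM + 1) (color) in 7 classes of cells (x axis) of the WT and the cit/cit library; Negr1, Sox5, Ccr7, Fscn1, Fabp4 and the C1q genes define classes. Sox5 is bright in the Sox5+ column of both libraries, Fcgr4 there and in the Ace+ Fabp4+ column, Ccl5 in the columns of Ccr7+ Fscn1+ cells and, in cit/cit, in all columns of Negr1-rich cells, and C1qa and C1qb most in the other C1q cells.

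Between genotypes, the Negr1-rich cells differed in their makeup, so a ratio of the summed cells is also a ratio of the groups. Of 4161 genes, 26 (0.625%) were at least 2-fold higher and 110 (2.64%) lower in cit/cit than in WT Negr1-rich cells. Between the other cells, 38 of 3946 (0.963%) were higher and 112 (2.84%) lower, so the shares were near each other. The 5 highest among genes with at least 200 CPM were Gpr141, Sdf2l1, Manf, Hspa5 and Ifi27l2a, with log2 ratios of 1.91, 1.59, 1.57, 1.53 and 1.45. The same genes had log2 ratios of 1.11, 2.21, 2.35, 2.19 and 1.01 between the other cells of the libraries. The lowest was H2-Aa itself, at 3308 CPM (4516 UMIs) in WT and 46.3 CPM (57 UMIs) in cit/cit, a log2 ratio of -6.01 beside -6.26 in the other cells. It was followed by Myh15, Pparg, Sox5 and Fcrl5, with log2 ratios of -4.29, -2.70, -2.38 and -2.17, beside -0.54, -0.30, -0.70 and -0.62 in the other cells. All 4 were high in the Sox5+ group of WT, and all but Myh15, which had 1 UMI, in that of cit/cit. The Sox5+ group was 48.0% of the WT and 10.9% of the cit/cit Negr1-rich cells. Within that group the log2 ratio of cit/cit to WT was -5.04 for Myh15, -1.21 for Pparg, 0.01 for Sox5 and -0.46 for Fcrl5. The part of the makeup in these ratios was not tested.

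Genes of red cells and of antibody-making cells were among the 10 lowest in WT Negr1-rich cells. Hbb-bs, Hba-a1 and Hba-a2, which encode globins, and Igkc, the kappa constant region of antibodies, led, and Hbb-bs was at 3.66 CPM beside 212 CPM in WT and at 2.44 beside 91.1 CPM in cit/cit. P3h2, a prolyl hydroxylase of collagens, was at 5.86 beside 98.3 CPM and 2.44 beside 27.1 CPM. Gclc, a subunit of the enzyme that starts glutathione synthesis, was at 27.8 beside 261 CPM in WT but at 41.4 beside 33.5 CPM in cit/cit. Mab21l3, Bcl2l14, Laptm4b and Dscaml1 followed, with log2 ratios from -2.95 to -2.41 in WT and from -1.21 to -0.01 in cit/cit.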

How the data were processed

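Libraries were made with a 10x Genomics 3′ kit and sequenced on a NovaSeq instrument. Per the labels, Cell Ranger 5.0.1 and the mm10 (GRCm38) reference were used. The deposited matrices hold raw UMI counts, as the authors left them before any scaling. Whether intronic reads were counted is not given in the sources used here. All cells were kept, without a mitochondrial limit and without removal of doublets. Members and lists were chosen with earlier results of these data known. For each class of cells, UMIs were added up, scaled to CPM, and compared as log2 ratios after adding 5 CPM. Genes named were the 25 highest and 10 lowest in WT, the leading genes of each list and the 5 highest and lowest between genotypes; other genes named were chosen after their values were seen, as were the Sox5 split and the Xcr1 class. Intervals are exact Poisson, exact binomial or Newcombe at 95%. Clusters used 2000 variable genes, 30 components and Leiden at a resolution of 1 (scanpy 1.11.5, Python 3.11.15). Gene positions came from GENCODE for 32158 of 32285 genes. The ratios were also computed on simulated counts with known changes, drawn from the pooled sums without any spread between cells. That simulation does not cover the weight of single cells in the sums. Clec7a and Mx1 of the lists were not matched by symbol. Alternatives were other Negr1 minimums, a minimum per total UMIs, cells without high doublet scores or mitochondrial shares, the mean over cells, and other minimum levels; leaving out the Sox5+ cells, other Sox5 minimums, leaving out the deepest Ccr7+ Fscn1+ cell, the count over 19 leading genes and the merged clustering were added after seeing the data.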

Additional observations from a re-analysis of the deposited data

How the results depend on the processing

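No paired analysis was possible because each genotype had 1 library. Shares of Negr1-rich cells in WT and cit/cit were 2.91% and 2.05% at 3 UMIs, 1.31% and 0.399% at 10 UMIs, and 1.87% and 0.920% with at least 1 Negr1 UMI per 1000 UMIs, and the difference stayed below 0 under all 5 alternatives, from -1.03 to -0.857 points. Lower genes numbered 168 in WT and 58 in cit/cit at 10 UMIs, 161 and 111 without the highest doublet scores, and 154 and 80 with the mean over cells. With 1 Negr1 UMI per 1000, higher and lower genes numbered 309 and 187 in WT and 377 and 201 in cit/cit. With a minimum of 10 CPM there were 413 and 158 in WT and 283 and 73 in cit/cit, and with no minimum 461 and 184, and 298 and 90, since more genes were compared. Without the highest doublet scores, 282 genes were higher in cit/cit. With 30 neighbors and 15 components, 39.8% of neighbors were Negr1-rich in WT and 8.09% in cit/cit. The cause of the other shifts was not tested. Of 490 values of gene ratios of at least 1 in size under the alternatives, 490 kept their direction and 482 stayed at 1 or more. Beyond counting error, 260 of 570 gene ratios, 305 of 809 list medians and 11 of 14 shares of cells with a UMI moved. Without the Sox5+ cells, a choice made after seeing the data, 143 genes were higher and 64 lower in WT, and 136 and 21 in cit/cit. Depth limits the cit/cit Sox5+ group most, where 3 UMIs are 31.0 CPM.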

Other observations

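Outside the Negr1-rich set, 48 WT and 26 cit/cit cells held at least 2 Sox5 UMIs. Of these, 14 in WT and 12 in cit/cit also held at least 3 UMIs of both Ccr7 and Fscn1. Over all 48 and 26 cells the Negr1 level was 144 CPM in WT and 68.7 CPM in cit/cit. Of the 19 leading genes other than Negr1, Sox5, Fabp4 and the C1q genes, which were picked against these cells among others, at least 5 were found in 18 of the WT cells (37.5%) and 4 of the cit/cit cells (15.4%). The share was 1.03% and 0.527% of all cells outside the Negr1-rich set, 59.6% and 34% of the Ace+ Fabp4+ cells and 23.1% and 16.7% of the C1q cells there. When the 2 libraries were merged and clustered without Negr1 and Sox5, a clustering chosen after seeing the data, a cluster of 204 WT and 147 cit/cit cells held 85 WT and 15 cit/cit Negr1-rich cells. Pparg was at 1211 CPM in its WT and 606 CPM in its cit/cit cells. The leading genes of this cluster included Pparg, Fabp4, Sox5 and Ace. It held 72 WT and 8 cit/cit cells of the Sox5+ group, while 99 of its WT and 115 of its cit/cit cells had no Negr1 UMI.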
